A study of Homo sapiens with 8 samples.

Results

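UBB and RPS27A code for ubiquitin, and the RFX7 peaks within 10 kb of their bodies were described in RPE-1 cells after Nutlin-3a treatment and in solvent controls. These 2 genes were taken from 20037 protein-coding genes. The group was chosen by the fold enrichment and −log10 p of the UBB peak, known to be large, so the fold enrichment, −log10 p, width and position of this peak are given as a description, with no test. Of 1234 Nutlin-3a peaks 1 lay within 10 kb of UBB or RPS27A, and of 556 DMSO peaks 0 did. The series held 8 samples of RPE-1, an established human line of retinal pigment epithelium immortalised with telomerase, in 4 groups of 2. These were RFX7 ChIP from cells given 10 µM Nutlin-3a for 24 h, RFX7 ChIP from cells given DMSO for 24 h, and input chromatin of either treatment. Nutlin-3a blocks the binding of p53 to MDM2, itself a ubiquitin ligase, and so stabilises p53. One peak list a treatment was analysed, with no values per replicate, so replicate error is unknown and no difference between treatments could be tested.

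Ubiquitin is a small protein that is joined to other proteins and marks many of them for the proteasome. UBB codes for a chain of ubiquitin units joined head to tail, which is cut into free ubiquitin, and its RNA is known for rising in stressed cells. RPS27A codes for ubiquitin fused to a protein of the small ribosomal subunit, and so supplies ubiquitin together with ribosomes. RFX7 is a transcription factor of the RFX family, whose members bind the X-box, a DNA element built from paired half-sites.

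An RFX7 peak was listed at UBB, which codes for a ubiquitin chain, and none at RPS27A, which codes for a ribosomal fusion. UBB carried a single strong peak in the Nutlin-3a list, at 22.2-fold, centred on the upstream end of the gene. The nearest Nutlin-3a peak to RPS27A was 775 kb away, and the DMSO list had no peak within 5 Mb of either gene. Thus 1 of these 2 genes had a Nutlin-3a peak within 10 kb, beside 270 of 20037 protein-coding genes (1.35%), and 0 of 2 had a DMSO peak, beside 13 of 20037 (0.0649%). Since the genes were picked with the UBB peak known, nothing is read from the first of these counts.

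**Figure D1:**
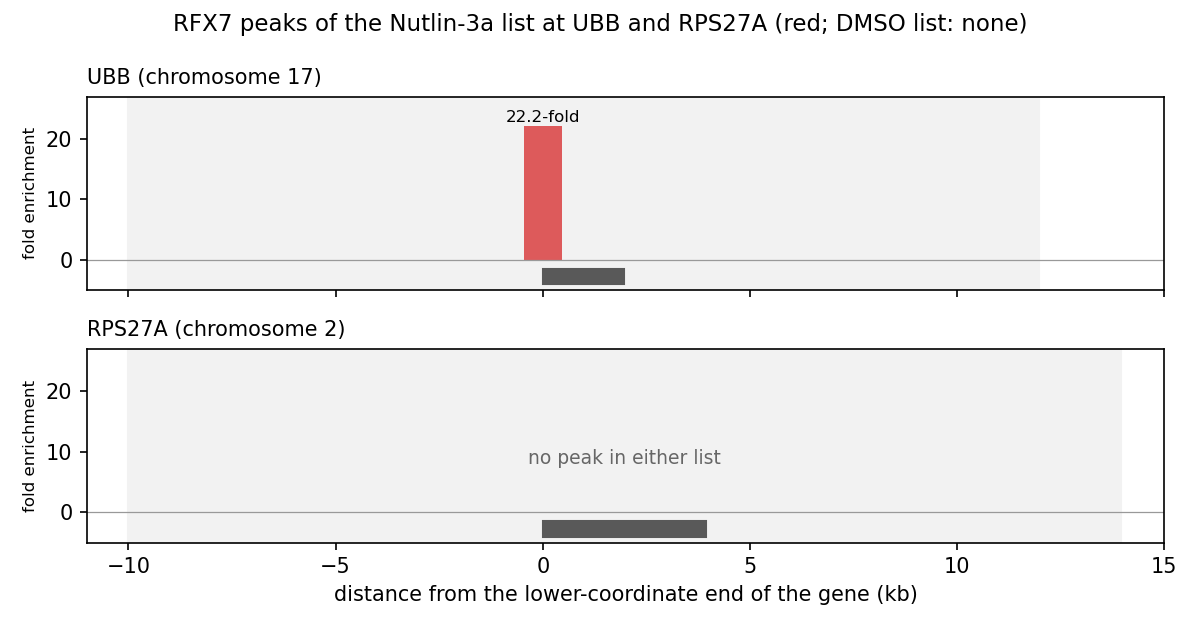
RFX7 peaks of the Nutlin-3a list (red boxes, drawn to their width, height is fold enrichment) at UBB and RPS27A (dark bars), by distance in kb from the lower-coordinate end of each gene; the pale band is the gene with 10 kb on either side. UBB has 1 peak of 22.2-fold across its lower end, and RPS27A has none.

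Sequence under part of the UBB peak, away from its summit, is shown because the comparison turns on this peak. RefSeq (GRCh38.p14) holds promoter windows of 300 bases, from 250 before to 50 after a transcript start, for UBB and RPS27A, with 2 and 3 windows. The UBB window below belongs to a transcript that starts inside the gene body, at position 16381290 on the forward strand of chromosome 17, and spans chr17:16381040-16381339. The first 205 bases, in capitals, lie inside the Nutlin-3a peak. The summit of the peak is upstream of this window.

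UBB: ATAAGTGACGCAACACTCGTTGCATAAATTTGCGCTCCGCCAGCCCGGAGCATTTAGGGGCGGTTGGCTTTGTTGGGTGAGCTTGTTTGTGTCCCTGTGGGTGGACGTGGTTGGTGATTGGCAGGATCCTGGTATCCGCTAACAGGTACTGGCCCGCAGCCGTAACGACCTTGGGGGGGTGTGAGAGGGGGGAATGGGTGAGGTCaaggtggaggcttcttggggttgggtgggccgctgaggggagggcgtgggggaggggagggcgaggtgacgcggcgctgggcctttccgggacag

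For contrast, the RPS27A window at chr2:55232428-55232727, forward strand, had no peak of either list on it and is in lower case throughout.

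RPS27A: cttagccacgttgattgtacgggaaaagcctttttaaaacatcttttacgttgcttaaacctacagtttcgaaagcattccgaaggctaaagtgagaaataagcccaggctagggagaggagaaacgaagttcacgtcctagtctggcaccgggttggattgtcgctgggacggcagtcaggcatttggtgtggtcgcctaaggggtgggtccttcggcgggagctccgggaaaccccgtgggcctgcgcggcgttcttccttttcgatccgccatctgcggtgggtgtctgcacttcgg

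The UBB window was 62.7% G and C with 18 CpG pairs, and the RPS27A window 54.7% with 22. Of all 35116 RefSeq promoter windows 60.3% had a lower G and C content than the UBB window and 40.3% a lower one than the RPS27A window, so neither was at an extreme. The RFX half-site was searched as GTTGCCA or GTTGCTA on both strands, and no stretch can match both words at the same place. It was found in 0 of the 2 UBB windows and 0 of the 3 RPS27A windows. The 2 UBB windows, starting at 16381040 and 16381091, largely overlap. So do the RPS27A windows starting at 55232428 and 55232438, and overlapping windows are not separate searches. Across all 35116 windows 6.75% held the half-site, and 36 of the 130 windows lying over a Nutlin-3a peak outside clusters did (27.7%). Most of those 36 came from GTTGCTA, which was present in 21.5% of the 130 windows and 2.85% of all, while GTTGCCA was present in 6.15% and 4.08%. The whole X-box, searched as GTTGCCA followed directly by TGGNAAC, was in 0 of the 130 and in 0.103% of all. For UBB, these results say only that the letters are not in the 2 windows, which do not include the summit.

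UBB lies on chromosome 17 at positions 16380779 to 16382745. Its Nutlin-3a peak ran from 16380334 to 16381244, a width of 911 bp, with a −log10 p of 320 and a −log10 q of 313. The summit, at 16380753, was 26 bp outside the gene body and at 46.0% of the peak width, near the middle of the peak. Of the peak 466 bp (51.2%) lay inside UBB and 445 bp upstream of it. The transcript starts of the 2 RefSeq windows, both inside the gene body, were 537 and 588 bp downstream of the summit. The other gene within 10 kb of the peak was LOC124903937, a long non-coding RNA whose body ended 988 bp before the peak began.

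Among the peaks of its list the UBB peak ranked 2 of 1234 by fold enrichment, 21 by −log10 p and 13 by width. Fold enrichment was 8.03 times, −log10 p 13.5 times and width 5.66 times the median peak of the list, which had 2.77-fold, 23.8 and 161 bp. In the Nutlin-3a list 809 peaks were clustered, with 5 or more further regions of the lists inside 500 kb, and 425 were not. The UBB peak stood alone, with 0 other regions within that distance. Among the 425 peaks outside clusters it ranked 2 by fold enrichment, 2 by −log10 p and 11 by width. The peaks with a larger −log10 p than UBB were therefore clustered ones, with 1 exception.

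**Figure D2:**
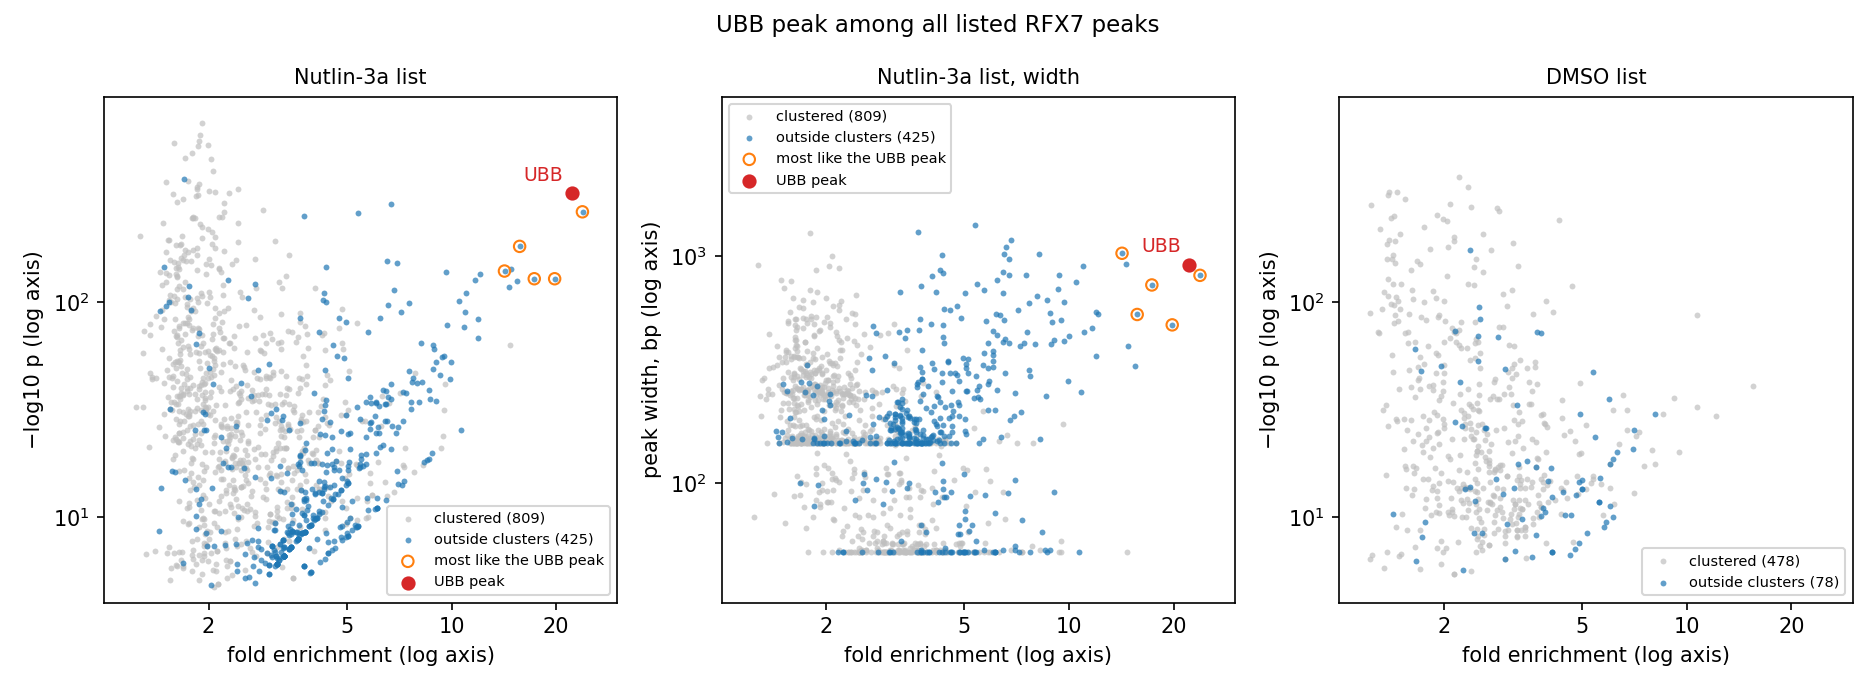
Every listed peak by fold enrichment (log axes) against −log10 p in the Nutlin-3a list, against width in bp in the same list, and against −log10 p in the DMSO list; grey points are clustered peaks, blue points peaks outside clusters, the red point the UBB peak and orange rings the 5 peaks most like the UBB peak. The UBB peak is high on all 3 measures, and the DMSO list has no peak at UBB.

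RPS27A had no peak nearby. It lies on chromosome 2 at positions 55231903 to 55235853. Its nearest Nutlin-3a peak was 775 kb away (54456035 to 54456618, 4.37-fold, −log10 p 19.8, 584 bp wide). The summit of that peak was 88 bp outside SPTBN1, a spectrin gene. The next was 4.39 Mb away (59627016 to 59627189, 3.15-fold, −log10 p 6.01). Chromosome 2 was not without peaks, with 74 in the Nutlin-3a list, of which 47 were clustered. Around UBB, after its own peak, the next Nutlin-3a peaks were 2.98 Mb away inside B9D1, a gene of the cilium (19362438 to 19362736, 4.75-fold, −log10 p 16.6), and 5.17 Mb away (11206280 to 11206329, 3.91-fold, −log10 p 5.47). The 10 kb limit therefore did not split peaks of similar distance, since the UBB peak overlapped its gene and the nearest peak outside the limit was the one 775 kb from RPS27A.

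In the DMSO list the nearest peak to UBB was 5.48 Mb away (chromosome 17, 21863140 to 21863374, 2.23-fold, −log10 p 37.2) and lay in a cluster. The nearest to RPS27A was 17.1 Mb away (38102500 to 38102564, 5.85-fold, −log10 p 9.52) and lay outside clusters. The UBB peak of the Nutlin-3a list overlapped no DMSO peak and had none within 1 kb. This was the usual case, since 897 of all 1234 Nutlin-3a peaks (72.7%) and 390 of the 425 outside clusters (91.8%) overlapped no DMSO peak, and 740 and 385 had none within 1 kb. The DMSO list gives no signal for positions it does not list, so a weaker peak there cannot be told from no binding, and depth is unknown from these lists.

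By fold enrichment, −log10 p and width together, the Nutlin-3a peaks most like that of UBB were 5 peaks near DIP2A, BBC3, TTC8, YWHAG and DDIT4. Likeness was the Euclidean distance over the log2 of these 3 values, each divided by its SD over the 1234 peaks. DIP2A was closest at a distance of 0.28, with 23.8-fold, −log10 p 262 and 820 bp. BBC3, a p53-linked cell death gene, followed at 1.06 and TTC8, a gene of the cilium, at 1.12. YWHAG, a 14-3-3 protein gene, was at 1.22 and DDIT4, an inhibitor of mTOR signalling, at 1.23. As with 91.8% of the peaks outside clusters, where all 5 lay, none of these overlapped a DMSO peak. The peaks at DIP2A, TTC8 and DDIT4 overlapped the gene, as at UBB, whereas those near BBC3 and YWHAG were 8195 and 8428 bp away from it.

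Further genes were examined through 7 lists of 182 genes, of which 5 lists with 94 genes cover the ubiquitin system and ubiquitin-like proteins and 2 lists with 88 genes cover ribosomal and heat-shock proteins. Of the 94 genes 2 (2.13%) had a Nutlin-3a peak within 10 kb and of the 88 none did, beside 1.35% of all protein-coding genes. None of the 182 had a DMSO peak within that distance, beside 0.0649% of all protein-coding genes. With a share so small, 0 of 182 does not set these genes apart. Both genes with a Nutlin-3a peak were among the 29 E2 enzymes, which carry activated ubiquitin to its targets. UBE2N, an E2 that builds ubiquitin chains used in signalling, had a peak on chromosome 12 (93441986 to 93442257, 5.84-fold, −log10 p 36.0) that began 39 bp outside the gene body. UBE2H had one on chromosome 7 (129948779 to 129949441, 8.07-fold, −log10 p 34.1) inside the gene, whose nearer end was 3519 bp from the edge of the peak. They ranked 114 and 45 of 1234 by fold enrichment and 430 and 452 by −log10 p, against 2 and 21 for the UBB peak.

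No peak lay within 10 kb of the E1 genes UBA1 and UBA6, whose products activate ubiquitin, nor of 15 deubiquitinases, which cut and recycle it, or 32 proteasome subunits. None lay within 10 kb of 16 genes of ubiquitin-like proteins or 12 heat-shock genes. For the heat-shock genes this depended on the limit. Within 50 kb 3 of the 12 (25.0%) had a Nutlin-3a peak, beside 0 of the 16 and 2.85% of all protein-coding genes. These 3 genes were not separate cases, since HSPD1 and HSPE1 were counted through the same peak, 32387 and 46182 bp from them. The peak named above as near YWHAG was also 13583 bp from the heat-shock gene HSPB1. Of 76 other ribosomal protein genes, the group to which the fused part of RPS27A belongs, 0 had a peak within 10 kb either. Beside the 1.35% of all protein-coding genes with a Nutlin-3a peak, 0 in groups of these sizes does not set them apart.

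**Figure D3:**
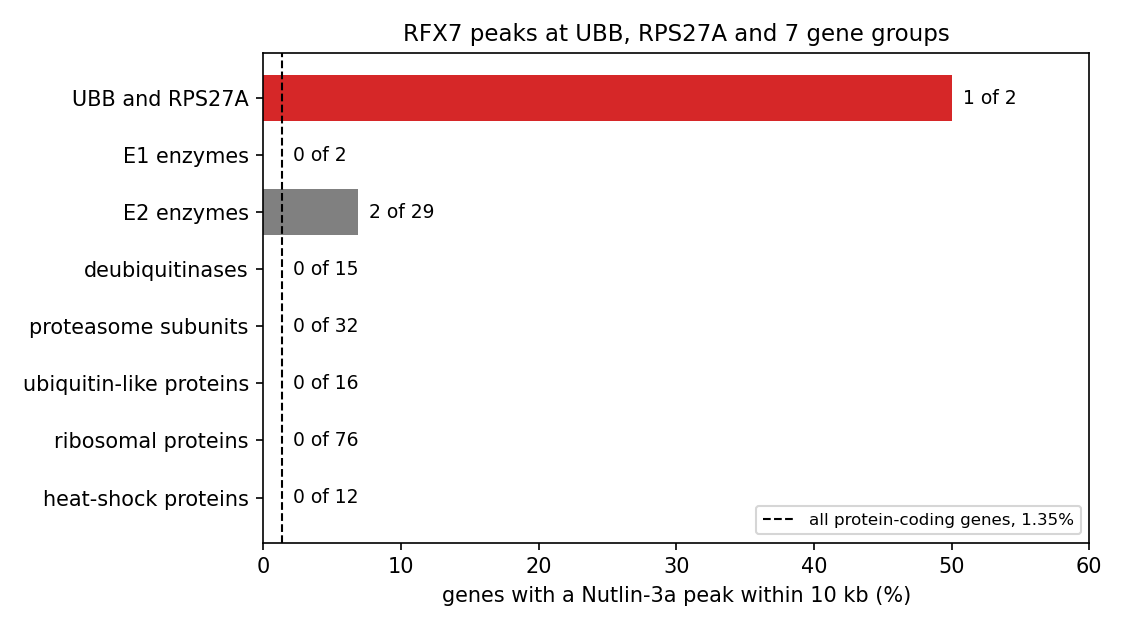
Share of genes (%) with a Nutlin-3a peak within 10 kb for UBB and RPS27A (top bar) and 7 groups of related genes, with counts beside the bars and the 1.35% of all protein-coding genes as a dashed line. Peaks are found at 1 of these 2 genes and 2 of 29 E2 enzymes and at 0 genes of the other 6 groups.

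The RefSeq window of UBE2N is shown since, among the 182 genes of these lists, it had a peak beside its start. It spans chr12:93441898-93442197 on the reverse strand, and the 212 bases in capitals lie inside the Nutlin-3a peak. It held 0 half-sites in either form.

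UBE2N: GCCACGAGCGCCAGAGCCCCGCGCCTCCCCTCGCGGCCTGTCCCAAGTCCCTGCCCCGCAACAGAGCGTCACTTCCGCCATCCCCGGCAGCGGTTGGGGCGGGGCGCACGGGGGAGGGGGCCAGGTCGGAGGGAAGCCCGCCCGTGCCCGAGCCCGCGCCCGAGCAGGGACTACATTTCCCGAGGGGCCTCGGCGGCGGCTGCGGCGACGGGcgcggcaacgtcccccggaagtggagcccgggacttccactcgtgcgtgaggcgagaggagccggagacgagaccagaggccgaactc

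UBB and RPS27A also have pseudogene copies elsewhere in the genome. RefSeq names, by symbol, 25 pseudogenes, 5 of UBB and 20 of RPS27A, and 0 of them had a Nutlin-3a peak within 10 kb, beside 77 of 17051 pseudogenes in all (0.452%). In the DMSO list 1 of the 25 did, UBBP4, beside 48 of 17051 (0.282%). UBBP4 spans 22090750 to 22205151 on chromosome 17, and 2 DMSO peaks lay in it, of 4.18-fold (22143116 to 22143270, −log10 p 12.0) and 5.15-fold (22157235 to 22157547, −log10 p 13.6). This span is far longer than the 1967 bp of UBB, so a peak in it need not lie on UBB-like sequence, which was not examined. Each of these 2 DMSO peaks had 26 other listed regions within 500 kb, and the nearest Nutlin-3a peak was 99.3 kb from the pseudogene. How reads shared between UBB and its copies were placed is not given in the sources used here, and its part in either value was not tested.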

How the data were processed

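RFX7 ChIP and input samples of RPE-1 cells were grouped by the sample titles. The values were 2 deposited peak lists in narrowPeak layout, 1 for each treatment. Build hg38 and the tools MACS2 2.2.7.1, SAMtools 1.10 and bedtools 2.29.2 are named in the submitters' processing notes. The aligner, the control for peaks and the way replicates were combined are not given in the sources used here. The fold enrichment (a ratio), the −log10 p, the −log10 q and the score of each peak were deposited by the authors, are the peak caller's own values, and were used only within their list. Starts were made 1-based. Library depth is unknown, so no counting interval is given. 

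Gene bodies came from a RefSeq table of GRCh38.p14 (all 184 list genes matched by symbol), which gives no strand, and promoter windows from RefSeq of the same assembly (153 of the 184 matched). A peak was near a gene when any base lay within 10 kb of its body, and 1 bp in common made peaks of both lists shared. Distances, counts and letter searches were computed with Python 3.11.15 and pandas 2.3.3 and tested on simulated data. No test was run. Genes named are UBB and RPS27A, list genes with a peak within 10 kb, genes near the UBB peak and genes near the 5 peaks most like that of UBB. SPTBN1, B9D1, UBBP4, HSPB1, HSPD1 and HSPE1 were named after their values were seen. Other genes that the rule covers are not reported here. The members and lists were chosen with earlier results of these data known.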

Additional observations from a re-analysis of the deposited data

How the results depend on the processing

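No paired analysis was possible because the lists hold no values of single replicates, and leaving out replicates was not run for the same reason. A peak at UBB in the Nutlin-3a list, none at RPS27A, and none in the DMSO list were found with distances of 1, 5 and 50 kb, with −log10 q of at least 5, with summits in place of whole peaks and with peaks outside clusters. None of these settings could have changed this. The peak overlapped UBB with a −log10 q of 313 and stood outside clusters. The nearest Nutlin-3a peak to RPS27A was 775 kb away, and the nearest DMSO peak to UBB 5.48 Mb. The UBB peak was shared under none of 3 other overlap rules, which this last distance also fixed. Under those rules 740 to 1006 of all 1234 Nutlin-3a peaks were not shared. The UBB peak ranked 21 by −log10 p and 13 by width in place of 2, as the measures order peaks differently. Within 50 kb, 8 of 182 genes of the other lists (4.4%) had a Nutlin-3a peak and 2 (1.1%) a DMSO peak. The shares of all protein-coding genes were 2.85% and 0.205%. The 8 include HSPD1 and HSPE1, counted through the same peak, and nothing is read from counts this small. The share of all promoter windows with the half-site was 4.08% for GTTGCCA, 2.85% for GTTGCTA and 0.103% for the whole X-box, in place of 6.75%, by construction. Over Nutlin-3a peaks outside clusters it was 6.15% for GTTGCCA and 0% for the whole X-box, in place of 27.7%. Peaks outside clusters and GTTGCTA alone were chosen after seeing the data. Unknown depth and 1 list a treatment limit every comparison.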
